A study of Drosophila melanogaster with 42 samples.

Results

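The 5 autosomal sites described here lie in or beside the genes InR, COX7AL2, CG11905, ATPsynC and CG34253 of Drosophila melanogaster. They were chosen by the -log10 p of their peaks in 6 lists of ChIP-seq peaks: each site holds the strongest autosomal peak of at least 1 list. The lists cover the proteins MSL1, MSL2 and MSL3 in females and in males. Every peak within 10 kb of the 5 reference summits was taken, which gave 94 of the 39130 peaks in the 6 lists, or of the 27317 peaks on chromosome arms 2L, 2R, 3L, 3R and 4. Of the 94 peaks, 18 were around the InR site, 36 around COX7AL2, 10 around CG11905, 24 around ATPsynC and 6 around CG34253. Because the strength of the peaks chose the sites, strengths and ranks are given below as a description, with no test.

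The study asked how MSL1 brings the MSL complex to the X chromosome. Chromatin came from whole adult flies, which the labels give as 3 days old, so the cells behind a peak are not known. The females, M1[WT]+MSL2, were msl-1− flies carrying Ubi:msl-2WT-FLAG and Ubi:msl-1WT. The males, M1[WT], were msl-1− flies with Ubi:msl-1WT on both homologues. In both groups msl-1− stands for the combination of the null alleles msl-1γ269 and msl-1L60, so all MSL1 came from a transgene on the third chromosome under the broadly active Ubi-p63E promoter. The females also made MSL2 from such a transgene, whereas MSL2 in the males came from its own gene. For MSL3 in males the genotype label names the line with MSL2, while the titles and the methods name M1[WT], which was used. The lists rest on 2 libraries each, except MSL1 in males, which rests on 1, and the labels do not tie the peak values to single libraries. Each list therefore gives 1 main value per peak. All lists but that of MSL1 in males also hold values of 2 inputs. The files do not say whether these inputs were replicates, so they are not read as a spread between flies. Males and females also differ in the copies of the MSL1 transgene, in the MSL2 transgene and in how the lists were made, and these cannot be told apart from sex. The only nonspecific IgG libraries in the labels are of control flies, 2 of females and 1 of males. No IgG library of the M1[WT] or M1[WT]+MSL2 lines is listed, so enrichment was not over IgG of the same line.

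The MSL complex raises the transcription of the single X chromosome of Drosophila males. MSL1 and MSL2 form its core, which recognises high-affinity sites on the X chromosome that are rich in GA repeats. MSL3 is a chromodomain protein through which the complex reaches the bodies of active genes. Wild-type females lack the complex because they do not make MSL2. InR encodes the insulin-like receptor, a tyrosine kinase of the cell surface. ATPsynC encodes subunit c of the mitochondrial ATP synthase, and COX7AL2 is annotated as a relative of subunit 7A of cytochrome c oxidase. CG11905 and CG34253 carry systematic names only.

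The sequence around each summit is shown because the sites differed in what their DNA holds. The sequences are from the forward strand of the Release 6 reference assembly (dm6) of RefSeq. They span chr3R:21580182-21580382 (a coding exon of InR), chr2L:2196493-2196693 (an intron of COX7AL2), chr3L:16930613-16930813 (a coding exon of CG11905), chr3R:31219631-31219828 (upstream of ATPsynC, cut where its first exon begins) and chr3L:18088135-18088335 (between genes). The reference summit is base 98 of the ATPsynC sequence and base 101 of the others. Capitals mark the word CAAGCAGT, or ACTGCTTG on the other strand, in the InR and CG34253 sequences, and the core of Motif 1 (GGTCACAC, here on the other strand) in the ATPsynC sequence. Motif 1 is a core promoter element of Drosophila.
InR: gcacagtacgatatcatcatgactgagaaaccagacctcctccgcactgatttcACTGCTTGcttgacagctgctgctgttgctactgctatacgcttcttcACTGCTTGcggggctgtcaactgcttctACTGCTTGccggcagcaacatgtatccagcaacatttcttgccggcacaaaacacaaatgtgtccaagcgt
COX7AL2: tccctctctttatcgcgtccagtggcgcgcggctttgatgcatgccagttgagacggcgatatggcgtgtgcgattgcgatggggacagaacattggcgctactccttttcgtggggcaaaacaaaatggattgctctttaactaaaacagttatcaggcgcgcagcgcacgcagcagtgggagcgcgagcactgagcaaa
CG11905: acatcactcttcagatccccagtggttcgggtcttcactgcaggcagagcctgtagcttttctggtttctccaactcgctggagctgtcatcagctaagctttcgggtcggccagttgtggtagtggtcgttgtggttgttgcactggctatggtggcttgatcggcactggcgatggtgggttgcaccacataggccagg
ATPsynC: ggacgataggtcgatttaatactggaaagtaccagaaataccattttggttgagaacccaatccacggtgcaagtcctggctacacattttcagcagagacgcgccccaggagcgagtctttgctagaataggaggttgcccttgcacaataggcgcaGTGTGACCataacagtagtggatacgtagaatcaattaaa
CG34253: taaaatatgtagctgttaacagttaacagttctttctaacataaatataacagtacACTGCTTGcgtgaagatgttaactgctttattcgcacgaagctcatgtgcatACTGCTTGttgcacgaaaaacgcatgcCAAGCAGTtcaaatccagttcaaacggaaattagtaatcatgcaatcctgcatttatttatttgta

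Each sequence was unique in the genome: no second copy of the 301 bp around any of the 5 summits was found at 90% identity over 80% of the length. The word CAAGCAGT occurred 3 times at InR, with centres at -42.5, 5.5 and 33.5 bp from the summit, and 3 times at CG34253, at -40.5, 11.5 and 38.5 bp. Thus the copies at both sites flanked the summit at nearly the same distances, although the InR site is coding sequence and the CG34253 site is not. The last copy at CG34253 lies on the opposite strand to the other copies. No copy was found within 250 bp of the COX7AL2, CG11905 or ATPsynC summits. The Motif 1 core at ATPsynC was centred 64.5 bp from the summit, on the side away from the gene.

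None of the 5 sites had a GA repeat, here any run of GAGAGAGA or AGAGAGAG on the forward or the reverse strand, within 100 bp or within 250 bp of the summit. With 6 alternating bases 1 site had one, COX7AL2. A GA repeat lay within 100 bp of between 2.38% (MSL1 in males) and 8.81% (MSL2 in females) of the other autosomal summits of the lists, and of between 1.35% and 1.98% of the same summits moved up by 5 kb. Among the 50 strongest other autosomal peaks it was also rare, at 1, 2 and 0 for MSL1, MSL2 and MSL3 in females and 3, 3 and 1 in males. Of the 50 strongest X peaks, 20 of MSL1 in females and 22 in each of the lists of MSL2 in females, MSL1 in males and MSL2 in males had one, against 1 of MSL3 in females and 3 of MSL3 in males. The element bound by DREF, TATCGATA, and a CA repeat (CACACACA or ACACACAC) were also sought on both strands and were absent within 250 bp of all 5 sites. The first occurred at 0.289% to 5.68% of the other autosomal summits across lists, and the second at 5.14% to 12.2%. At positions moved up or down by 5 kb the shares were 0.494% to 1.35% and 3.78% to 4.92%.

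**Figure D1:**
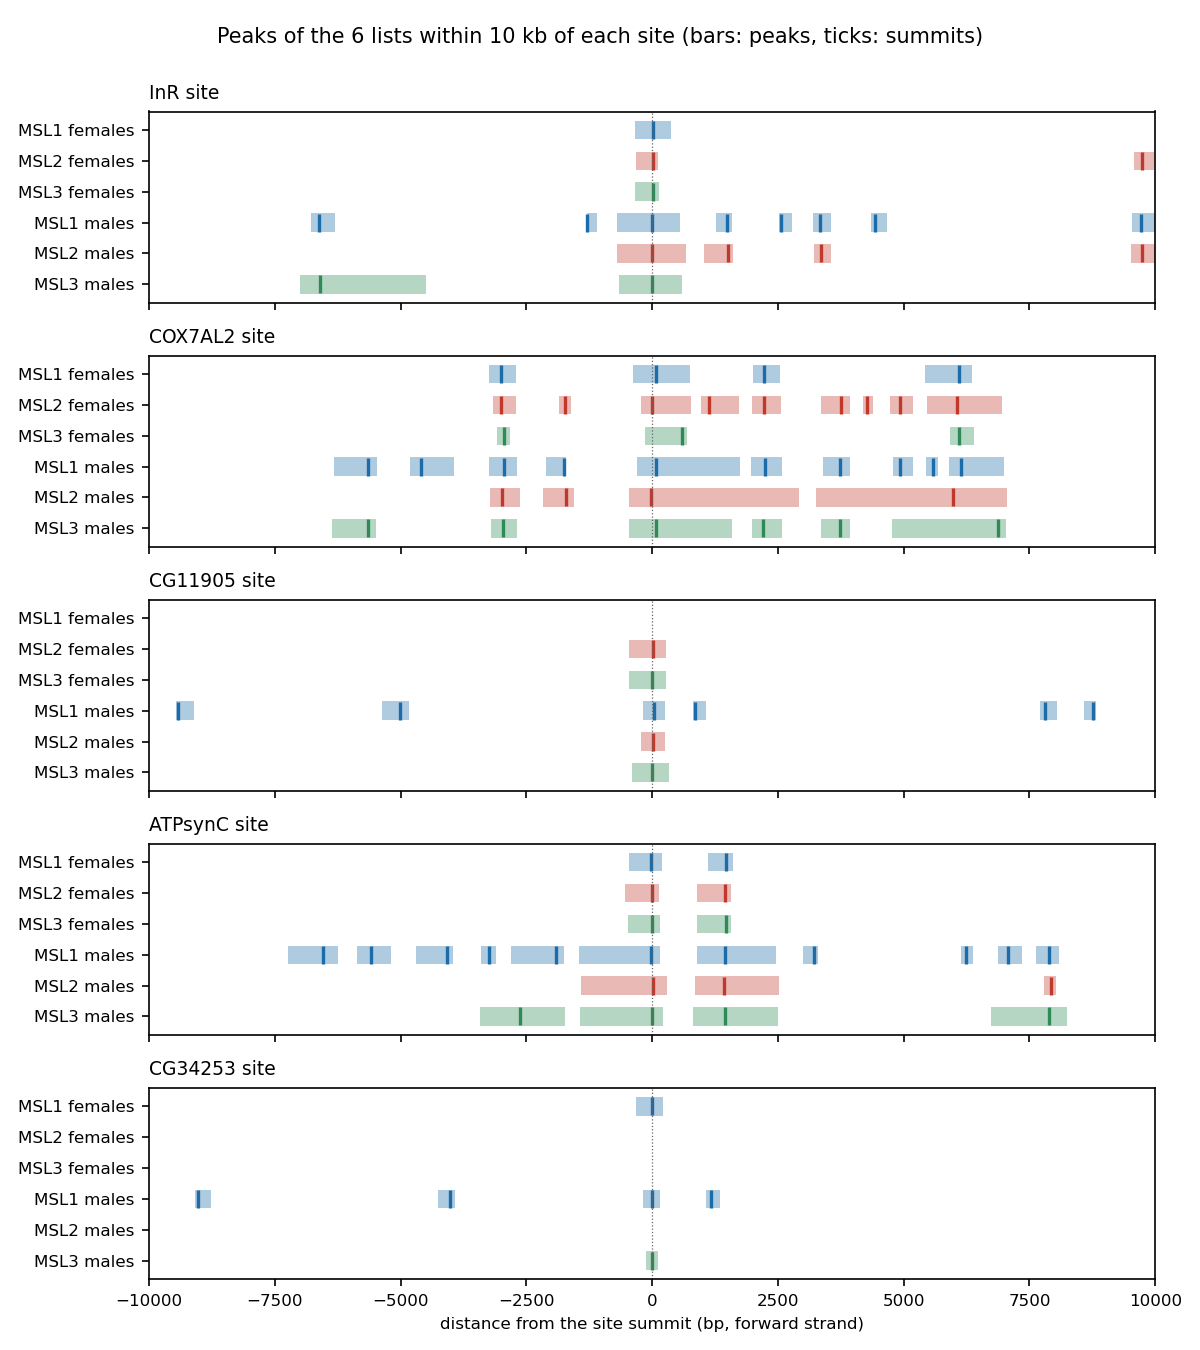
Peaks of the 6 lists around the 5 sites. Each panel is a site, each row a list, bars are peaks, ticks their summits, and the horizontal axis is the distance from the reference summit in bp, with bars ended at the 10 kb limit. At CG34253 the peaks of 2 lists are a single narrow position and MSL1 in males has 4, whereas COX7AL2 carries peaks of all 6 lists over several kb.

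At the InR site, on chromosome arm 3R at position 21580282, all 6 lists had a peak. The summit lay in a coding exon of all 4 InR transcripts that cover it, 9909 bp from the nearest start site of the gene, which is on the reverse strand (FBgn0283499, 21570248 to 21619321). Fold enrichment over nonspecific IgG at the summit stood, in females, at 20.0 (MSL1), 3.65 (MSL2) and 4.42 (MSL3). The values in males were 39.2 (MSL1), 3.25 (MSL2) and 11 (MSL3). Enrichments from different antibodies are not on one scale, so the proteins at a site are set side by side by rank and percentile in their own lists. By -log10 p the peak ranked 9 of 905 for MSL1 in females and 4 of 21980 in males, where it is the autosomal peak that chose the site. For MSL2 it ranked 415 of 2460 and 1650 of 6110, and for MSL3 145 of 1546 and 273 of 6129. MSL1 thus ranked ahead of both other proteins in both sexes, which in males the choice of the site had fixed in part. The 6 summits lay within 22 bp, from -10 to 12 bp of the reference.

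At a further position within 10 kb of the InR site, MSL2 was more enriched than at the coding site and MSL1 less. It lay 9725 to 9737 bp away, in the untranslated first exon of the InR transcript that begins at 21590191. MSL2 was enriched 5.49-fold there in females and 5.54-fold in males, above its 3.65 and 3.25 at the coding site. MSL1 in males was enriched 3.18-fold, below its 39.2 at the coding site, and MSL1 in females had no peak. Neither MSL3 list had a peak there. This position held both a GA repeat and the word CAAGCAGT within 100 bp of its summits in all 3 lists that had a peak.

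The CG34253 site, at 18088235 on 3L, had a peak in 3 lists only: MSL1 in females, MSL1 in males and MSL3 in males. The summit lay between genes, 915 bp upstream of the start of CG34253 (FBgn0085282, reverse strand, 18086674 to 18087320), 182 bp from the end of CG13698 and 158 bp from a copy of the transposable element INE-1. Fold enrichment was 30.0 for MSL1 in females, 13.7 for MSL1 in males and 5.69 for MSL3 in males. No MSL2 peak of either sex lay within 10 kb, and no MSL3 peak in females. The absence of a peak means that none passed the thresholds of that list, and the depth behind the lists is unknown. In females the MSL1 peak ranked 8 of 905 and was the strongest on the autosomes, just ahead of InR, with a -log10 p of 1010 against 1005. The second of the IDR inputs gave 1167 for CG34253 and 729 for InR. In males the site ranked 136 for MSL1 and 1561 for MSL3. The 3 summits lay within 4 bp, the smallest spread among the sites, but over 3 lists against 5 or 6 at the others. In the same 3 lists the InR summits lay at 9, 0 and 2 bp from the reference.

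At COX7AL2, on 2L at 2196593, all 6 lists had a peak within 500 bp, and MSL2 was the protein that chose the site in both sexes. The summit lay in the intron of the 1 transcript that covers it, 1319 bp inside the gene from its start (FBgn0085201, reverse strand, 2192525 to 2197912). MSL2 was enriched 17.1-fold in females and 34.0-fold in males, with ranks of 25 of 2460 and 35 of 6110. MSL1 was enriched 13.2-fold in females (rank 30) and 23.7-fold in males (rank 27). MSL3 was at 2.32 in females (rank 932) and 10.4 in males (rank 352). MSL1 and MSL2 both ranked in the first 35 of their lists in both sexes here, which held at none of the other 4 sites. Ranked by fold enrichment, MSL1 stood at 38 in females and 48 in males, and MSL2 at 30 and 68.

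The summits at COX7AL2 fell into 2 positions by protein. Those of MSL2 lay at 0 and -14 bp and those of MSL1 at 73 and 81 bp, and the MSL3 summit in males at 79 bp was beside those of MSL1. MSL3 in females had its summit at 596 bp in the list, but its IDR inputs placed it at 596 and 77 bp. Without that peak the 6 lists' summits spread over 95 bp, and with it over 610 bp. Across the 5 sites, the 2 IDR inputs differed by at most 17 bp in the other 20 peaks with both, with a median of 6 bp over all 21. By their IDR threshold, the inputs of MSL2 and MSL3 in females may be splits of pooled reads. The other IDR lists end at the threshold for true replicates, but the files do not name their inputs, and MSL1 in males has none. The inputs are therefore not read as the spread of summits between flies, and the separation of MSL1 from MSL2 was not tested.

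COX7AL2 was also the site with the most peaks around it. All 6 lists had a further peak 2939 to 3006 bp downstream in the direction of transcription, 577 to 644 bp before the start at 2193010 of the shorter COX7AL2 transcripts, where MSL1 in males was enriched 17.3-fold and MSL2 in males 15.5-fold. On the other side, between COX7AL2 and its neighbour CG31668, the lists had peaks up to 7 kb away. MSL2 in females had 9 separate peaks within 10 kb and MSL1 in males 10, while MSL2 in males had 4, of which those of 3370 and 3783 bp covered most of the stretch from the site to CG31668.

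The CG11905 site, at 16930713 on 3L, was led by MSL3. MSL3 was enriched 41.5-fold in males, where the peak ranked 1 of all 6129 peaks, the X chromosome included, and 6.70-fold in females, where it ranked 34 of 1546. MSL2 stood at 4.35 in females (rank 235) and 3.18 in males (rank 1517). MSL1 stood at 1.86 in males, with rank 3673 of 21980, and had no peak within 10 kb in females. This was the only site of the 5 with MSL2 and MSL3 but no MSL1 peak in females. The summit lay in a coding exon of 3 of the 7 CG11905 transcripts that cover it and in an intron of the other 4, 3279 bp from the nearest start site, that of CG13023. The gene is FBgn0036678, on the reverse strand at 16928381 to 16935536. The summits lay from -9 to 40 bp, with the weak MSL1 peak farthest out, and within 29 bp without it.

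The ATPsynC site, at 31219728 on 3R, was the only one of the 5 at a promoter. It lay 98 bp upstream of the start of ATPsynC (FBgn0039830, reverse strand, 31216145 to 31219630). MSL3 led here as well, at 22.9 in females (rank 3 of 1546) and 39.3 in males (rank 12 of 6129). MSL2 was enriched 12.6-fold in females (rank 50) and 11.5-fold in males (rank 303), and MSL1 6.48-fold in females (rank 140) and 8.21-fold in males (rank 228). All 6 lists had a peak, with summits from -28 to 10 bp. Those of MSL1 lay at -16 and -28 bp, on the side of the gene, and those of MSL2 and MSL3 between -5 and 10 bp.

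A second position beside ATPsynC was also present in all 6 lists. It lay 1425 to 1463 bp from the first, in the untranslated part of the second exon of CG12054, which starts at 31220702 on the forward strand. MSL1 in males was enriched 8.44-fold there, about as much as at the ATPsynC site. The other lists were lower than at ATPsynC, with 3.22 (MSL1), 3.60 (MSL2) and 4.29 (MSL3) in females, and 4.19 (MSL2) and 10.1 (MSL3) in males.

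**Figure D2:**
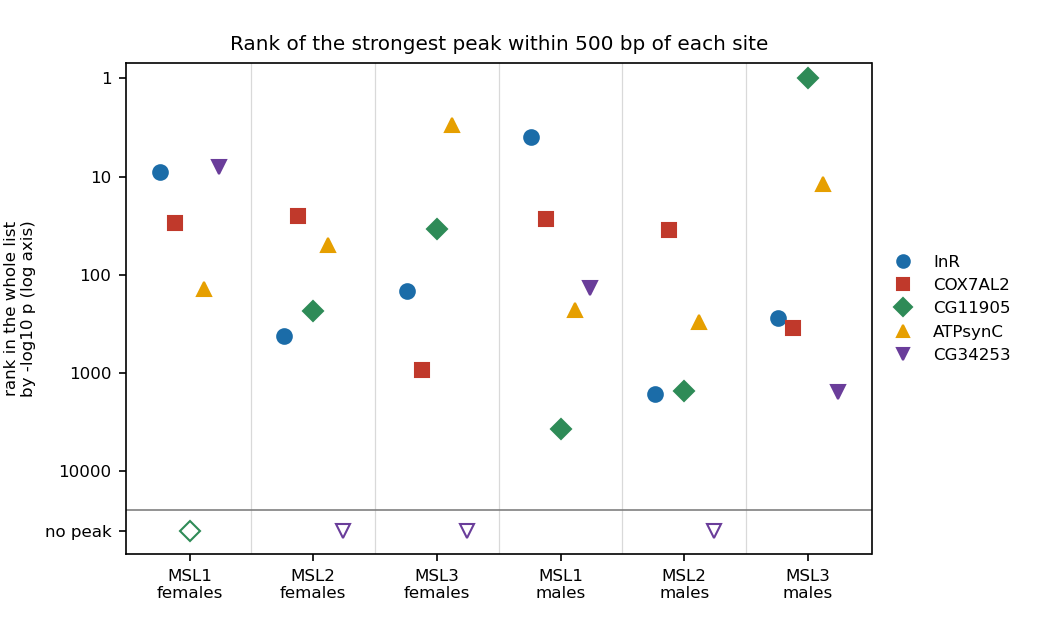
Rank of the strongest peak within 500 bp of each site in each list, on a logarithmic axis with rank 1 at the top. Open symbols below the line stand for lists with no peak. No list held all 5 sites in its first 100 peaks, and the order of the sites differed between MSL1, MSL2 and MSL3.

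Set side by side, the 5 sites were held by the lists as follows. The lists of MSL1, MSL2 and MSL3 in females each had a peak at 4 of the 5 sites. Of 17753 autosomal regions, made by joining overlapping peaks of the 6 lists, 2.09%, 4.54% and 2.25% had a peak of these lists. In males, MSL1 had a peak at all 5 sites, against 90.5% of the regions, so its presence says little about a site. MSL2 in males had a peak at 4 sites, against 20.7% of regions, and MSL3 in males at all 5, against 23.5%. A peak of all 6 lists was found at 3 sites and in 0.338% of regions. Since each site was picked as the top of a list, the counts cannot be read against these shares, which only say how common each kind of peak was.

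The protein with the best rank at a site was the same in both sexes at InR and CG34253 (MSL1) and at CG11905 and ATPsynC (MSL3). At COX7AL2 MSL2 led in females, at rank 25, while in males MSL1 stood at 27 and MSL2 at 35. As the lists differ in length, the order was also read in percentiles of each list, and the same protein led in every case. The list of MSL1 in males had no IDR step and is the longest, which raises its percentiles. Percentiles therefore do not put that list level with the others. Among autosomal peaks alone, however, COX7AL2 in males was first for MSL2 and at place 2 for MSL1. The choice of the sites fixed these leads in part: MSL1 chose InR in males and CG34253 in females, MSL3 chose CG11905 in males and ATPsynC in females, and MSL2 chose COX7AL2 in both sexes. The values that the choice did not use are those of the opposite sex, where MSL1 ranked 9 at InR in females and 136 at CG34253 in males, and MSL3 ranked 34 at CG11905 in females and 12 at ATPsynC in males.

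The threshold behind the choice was the first place among autosomal peaks. The next autosomal peak was a member again in 3 lists: InR for MSL1 in females, ATPsynC for MSL2 in females, with 12.6-fold enrichment against 17.1 at COX7AL2, and COX7AL2 for MSL1 in males, with 23.7 against 39.2 at InR. In the other lists it was a region outside the 5. For MSL2 in males it was in an untranslated exon of CNBP, with a -log10 p of 2248 against 2655. For MSL3 in females it was 202 bp from a start of T48, with 687 against 922. For MSL3 in males it was 456 bp from a start of MCU, with 3034 against 4163, although its enrichment of 57.5-fold was above the 41.5 of CG11905.

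**Figure D3:**
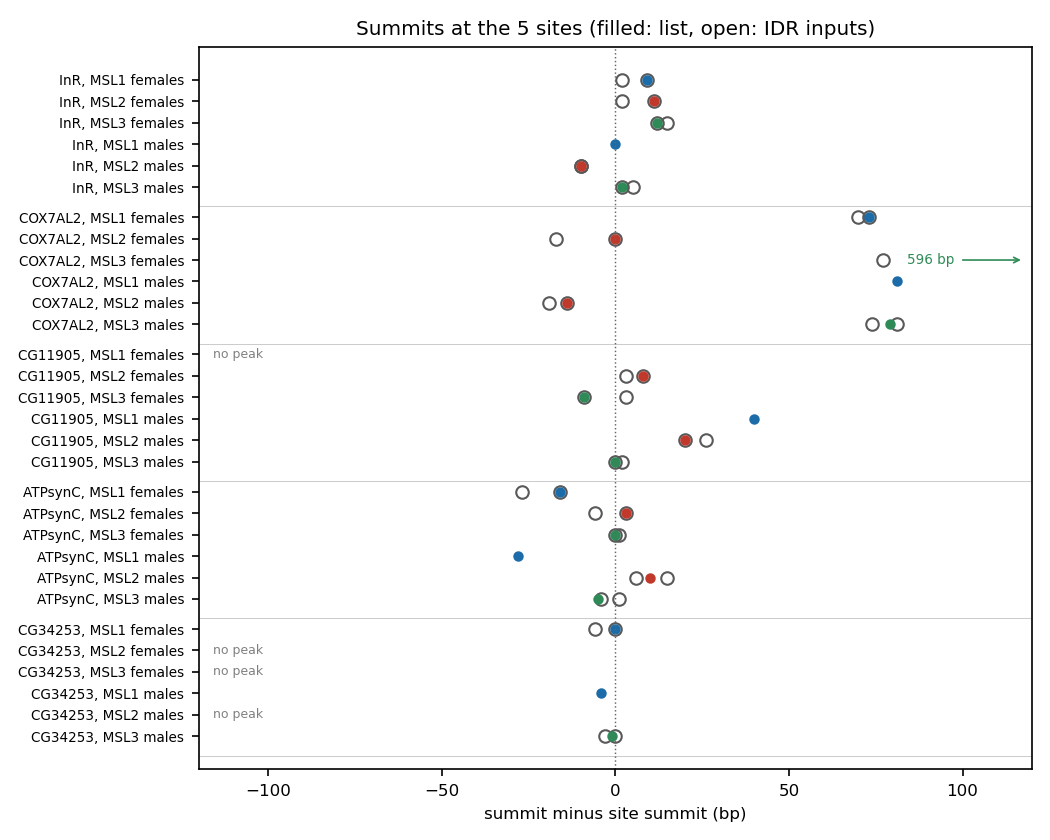
Summits of the strongest peak of each list at each site, in bp from the reference summit. Filled points are the summits in the lists and open points those of the 2 IDR inputs, and the arrow marks the MSL3 summit in females at 596 bp. At COX7AL2 the summits of MSL1 lie to the right of those of MSL2 in both sexes.

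The width of the peaks followed the list as much as the site. In females, autosomal peaks had median widths of 412 bp (MSL1), 373 bp (MSL2) and 344 bp (MSL3), and in males of 349, 665 and 894 bp. At COX7AL2 the MSL2 peaks, 995 bp wide in females and 3370 bp in males, were wider than 96.4% and 99.5% of the autosomal peaks of their lists. At InR the MSL1 peaks, 703 bp (females) and 1242 bp (males), were wider than 86.4% and 97.4%. The CG34253 peaks were narrower: 534 bp for MSL1 in females, wider than 74.3%, and 351 bp for MSL1 in males, close to the median. The MSL3 peak there in males, at 248 bp, was wider than 0.653% of the autosomal peaks of its list. The CG11905 peak of MSL3 in males was 727 bp wide despite its first rank, below the median of 894 bp.

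The share of the 10 kb on either side of a summit that lay in peaks also varied between the sites. In females it came, around COX7AL2, to 15.6% (MSL1), 28.7% (MSL2) and 7.91% (MSL3). In males the same shares were 38.3%, 41.9% and 34.4%. Around all autosomal summits the medians, in the same order, were 2.21%, 2.72% and 1.94% (females) and 13.1%, 9.53% and 18.5% (males). Around X summits they were 15.0%, 15.6% and 22.4% (females) and 28.8%, 33.8% and 45.6% (males). The COX7AL2 values for MSL1 and MSL2 were thus at or above the X medians in both sexes, and those for MSL3 below them. Around ATPsynC the share reached 42.2% for MSL1 in males, above COX7AL2 and the X median, and 32.8% for MSL3 in males, while MSL2 in males stood at 18.2% and the female lists at 5.69% to 6.73%. Around InR it ran from 2.33% to 4.23% in females and from 13.8% to 18.7% in males. Around CG11905 the 2 MSL3 values were 3.65% in females and 3.63% in males, although the peak ranked first in males. Around CG34253 no list passed 6.39%.

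**Figure D4:**
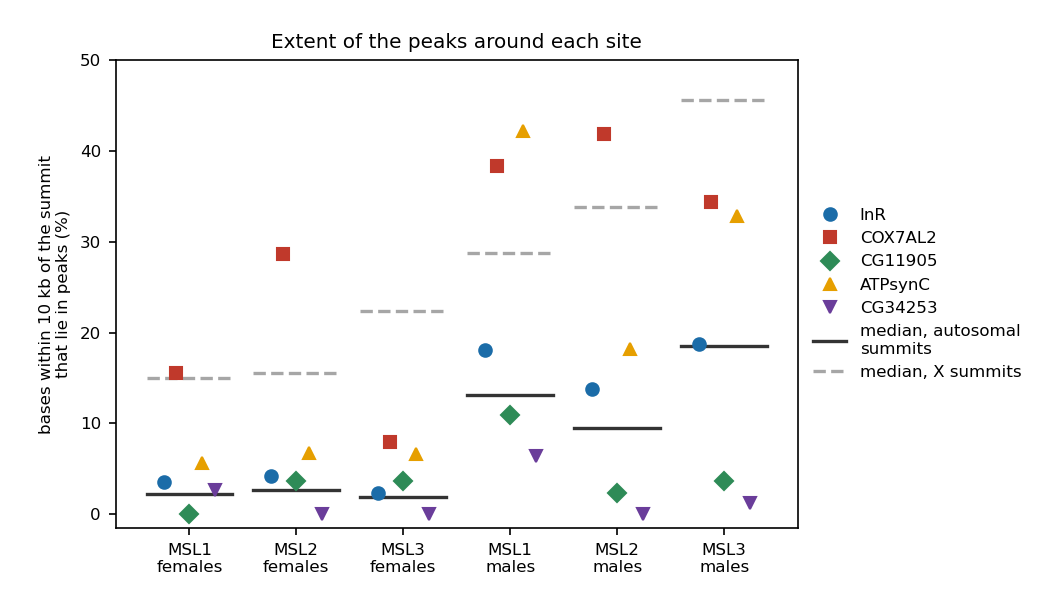
Percentage of the bases within 10 kb of each reference summit that lie in peaks of each list. Symbols are the 5 sites, solid lines the median around all autosomal summits of the list and dashed lines the median around its X summits. COX7AL2 reaches or passes the X median for MSL1 and MSL2 in both sexes, and CG34253 and CG11905 stay at 10.9% or less.

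A promoter position was the exception among the sites. Only ATPsynC had its summit within 500 bp of a start site. Of all autosomal summits in females, 76.2% (MSL1), 58.3% (MSL2) and 66.0% (MSL3) were this close to one, and of those in males 25.3%, 60.0% and 29.1%.

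The word CAAGCAGT was singled out after the sequences were seen, as follows. All 8-base words within 100 bp of the 5 summits were listed, with a word and its reverse complement taken as 1. Of these, 25 occurred at 2 of the sites and 0 at more. The word CAAGCAGT was the one of the 25 found at most of the other 370 autosomal summits of MSL1 in females, with the 5 sites left out, and the next 4 words in that order overlap it. It lay within 100 bp of 78 of the 370, or 21.1%, and of 0% of the same positions moved up by 5 kb and 0.270% of those moved down.

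The word was concentrated among the strongest of these peaks. It was present at 23 of the first 25 other autosomal MSL1 peaks in females, at 17 of the next 25, at 13 of the next 50, at 17 of the next 100 and at 8 of the last 170. At the 78 peaks with the word, the nearest copy was centred a median of 8.50 bp from the summit, and 71 had one within 50 bp. As at InR and CG34253, more than 1 copy was present at 30 of the 78, with a maximum of 3. These counts leave out InR and CG34253 themselves, but the peaks come from the list in which both sites lead.

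The word was chosen on the MSL1 list of females, which favours that list, and no word was chosen on the others. Among the 50 strongest other autosomal peaks it was present at 40 for MSL1 in females and 20 for MSL1 in males, at 10 and 12 for MSL3 in females and males, and at 2 and 1 for MSL2. Among the 50 strongest X peaks it was present at 2 for MSL1 in females and 0 in each of the other 5 lists. Over all X summits the share was 4.98% for MSL1 in females and 1.08% to 1.45% in the other lists. Moved X positions were not read. Over all other autosomal summits the shares were 1.72%, 8.89%, 1.27%, 1.04% and 2.17% for MSL2 and MSL3 in females and MSL1, MSL2 and MSL3 in males.

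**Figure D5:**
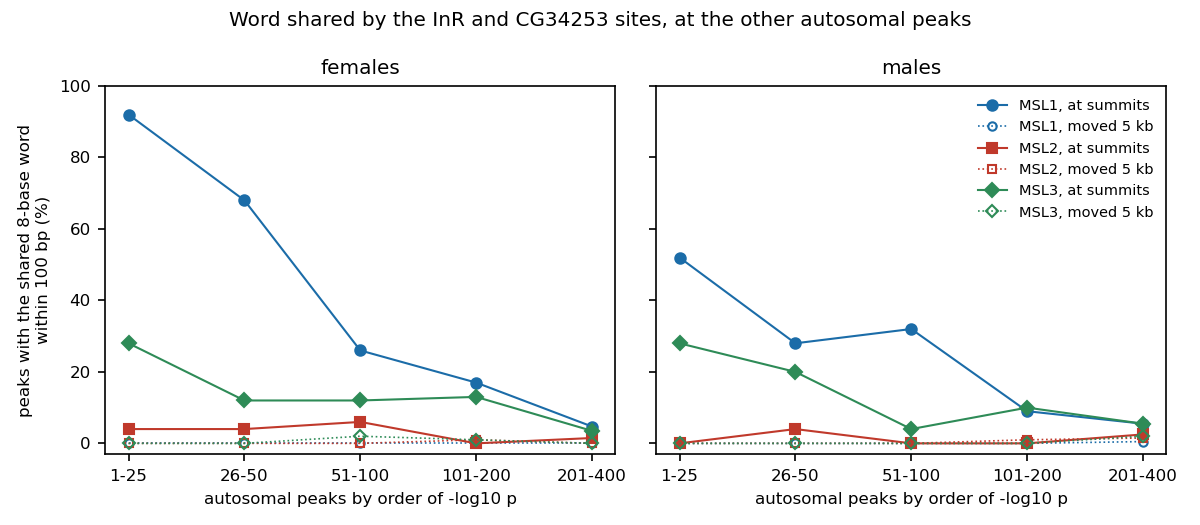
Percentage of autosomal peaks with the 8-base word of the InR and CG34253 sites within 100 bp of the summit, against the order of the peaks by -log10 p, with the 5 sites left out. Filled symbols are the summits and open symbols the same positions moved up by 5 kb. For MSL1 in females the share falls from 92% in the first 25 peaks to 4.71% in the last 170, where these peaks end at 370, and for MSL2 it stays at 6% or less.

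Of the 2 sites that gave the word, InR had MSL2 peaks in both sexes and CG34253 had none. At the other autosomal MSL1 peaks in females, MSL2 peaks were fewer where the word was present, although most peaks of either kind had none in females. MSL2 in females had a peak within 500 bp of 9 of the 78 (11.5%), against 101 of the 292 without the word (34.6%). Among the 50 strongest peaks of each kind the counts were 8 and 26. For MSL2 in males they were 24 of all 78 (30.8%) and 207 of all 292 (70.9%). MSL3 in females had a peak at 32 (41.0%) and 75 (25.7%), and MSL3 in males at 53 (67.9%) and 191 (65.4%). A start site lay within 500 bp of 42 of the summits with the word (53.8%) and 242 of those without (82.9%). The difference was not tested, since the word was chosen with these peaks in view.

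The Motif 1 core of the ATPsynC site occurred within 100 bp of 85 of the 370 other autosomal MSL1 summits in females (23.0%). Of positions moved by 5 kb, 0.270% (up) and 1.08% (down) had it. It was found at 0 of the 50 strongest of these summits. In the other lists it was present at 1.14% to 5.93% of autosomal summits and at 0.343% to 1.23% of moved positions.

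For each site, the 2 autosomal regions most like it were taken by the mean absolute difference in rank percentile over the 6 lists. For InR these lay near T48 (4.14 percentage points) and alt (7.01), and the first had the word CAAGCAGT. For CG34253 they lay near CG4702 (2.46) and CG6465 (2.68), and both had the word. For ATPsynC they lay near cindr (1.69) and Men-b (3.59), the second with the word. For CG11905 they lay near MCU (3.18) and CG42788 (3.62). For COX7AL2 the nearest was the downstream intronic position of the same gene (6.27), followed by a region near Rh5 (8.21).

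The other genes of the 3 pathways to which members belong were read from the annotation, with a peak within 500 bp of a start site as the measure. In females, MSL1, MSL2 and MSL3 had a peak at 5, 1 and 1 of the 15 autosomal ATP synthase genes, at 2, 4 and 1 of the 17 cytochrome c oxidase genes and at 2, 2 and 3 of the 23 insulin signalling genes. Of all 11749 autosomal protein-coding genes, 3.68%, 5.86% and 2.92% had one. In males the counts were 12, 9 and 9 of 15, 12, 8 and 9 of 17, and 12, 12 and 8 of 23, against 47.7%, 27.2% and 22.0% of all genes. The counts include the members themselves.

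ATPsynC, COX7AL2 and InR were the genes of these lists with a start-site peak in all 6 peak lists. In ATPsynC this was through the upstream site, and in InR through one or another of the 4 annotated starts, a different one for different lists. In COX7AL2, MSL1 and MSL3 in females had a peak near the start at 2193010 only, and the other lists also near that at 2197912. With the strongest 50% of peaks, MSL3 in females had none at COX7AL2 or InR. COX8, a subunit of cytochrome c oxidase, had a peak in 5, without MSL3 in females. The other members of the ATP synthase enzyme with an MSL1 peak in females were ATPsynCF6, ATPsynD, ATPsynF and blw, which encodes the alpha subunit, and none of the 4 had a start-site peak of MSL2 or MSL3 in females.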

How the data were processed

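The authors trimmed ChIP-seq reads with cutadapt, mapped them to dm6 with Bowtie2, removed duplicates with Picard, and used MACS2 to call peaks over nonspecific IgG. For 5 of the 6 lists they ran IDR, which keeps peaks that recur in 2 inputs. The files do not say whether these inputs were replicates or pseudoreplicates. MSL1 in males has 1 replicate and MACS2 output alone, and its list is the longest.

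The deposited columns are the position and summit of a peak, its score, its fold enrichment (a ratio over IgG at the summit), its -log10 p and its -log10 q, and the IDR lists also give the -log10 of the IDR and of the inputs' p. These are the authors' values. In the female lists every -log10 p equals that of the first input, while in the male MSL2 and MSL3 lists at most 0.164% do, so ranks, widths and coverage were computed within each list, and values of different lists are set side by side with no test. The lowest -log10 IDR is 2.00 for female MSL2 and female MSL3, the threshold that the methods name for pseudoreplicates. It is 1.30 in the other IDR lists, the threshold that the methods name for true replicates. The score was not used. The libraries of control flies, of mutant MSL1 and of IgG were not analysed here. No read counts are given, so the depth behind a peak is unknown and no error could be attached to it.

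A peak was counted at a site where its edge lay within 500 bp of the reference summit, and the strongest such peak by -log10 p was used. Ranks run over the whole list, and positions are 1-based. Annotation was taken from release 115 of Ensembl, in dm6 coordinates, and sequence from RefSeq. Of the 29 symbols fixed for insulin signalling, 28 matched the annotation, and 23 of them are autosomal. The members and gene lists were chosen with earlier results of these data known. The genes named are the members, the genes at or nearest to their summits, the first and next autosomal peak of each list, the genes of the 3 gene lists with a peak in at least 5 lists, and the 2 most alike regions of each site. Others were named after their values were seen. The Motif 1 core, DREF element, CA repeat and CAAGCAGT were added after the sequences were seen. The tools were blastn 2.17.0, bedtools 2.31.1 and Python 3.11.15 with matplotlib 3.10.9, numpy 2.4.6 and pandas 2.3.3. Overlap, joining, coverage and word counts were tested on simulated data, and all 4 checks passed.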

Additional observations from a re-analysis of the deposited data

How the results depend on the processing

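The number of lists with a peak was read again under other settings. The peak had to cover the summit, 1000 bp or the distance of the summit was used, or only the strongest 50% of peaks or a -log10 q of at least 2 was kept. The number stayed the same at every site but COX7AL2. There it fell from 6 to 5 with the distance of the summit and with the strongest 50% of peaks. The list lost was MSL3 in females, with its summit at 596 bp and rank 932. Without the list of MSL1 in males, the summit spread fell to 29 bp at CG11905 and to 1 bp at CG34253. With 6 alternating bases, 1 site had a GA repeat. Ranked by fold enrichment, 8 of the 26 ranks in whole lists moved by more than 1.5 times, and 5 of the 6 first autosomal places were kept, the exception being CG11905 for MSL3 in males, which took place 3. Counted among autosomal peaks alone, 25 of the 26 ranks were lower by more than 1.5 times, since X peaks drop out. Joining overlapping peaks moved none of the 26 ranks by more than 1.5 times. Of the 18 gene list counts, 1 moved with 1000 bp and 9 with the strongest 50% of peaks. The share of other autosomal MSL1 summits in females with CAAGCAGT stayed within 1.5 times of 21.1% within 50 bp, within 250 bp and with 7 of its letters, which are alternatives added after the data were seen. Leaving out replicates was not possible, because the labels do not tie the peak values to single libraries and MSL1 in males has only 1. Ranks were not read again by the values of the second IDR input. No paired analysis was possible because the lists carry no replicate numbers and no test was run.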
